A study of Homo sapiens with 4 samples.

Results

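The HOX cluster genes are the human homeobox genes that lie in 4 runs of neighbouring genes, HOXA on chromosome 7, HOXB on chromosome 17, HOXC on chromosome 12 and HOXD on chromosome 2. They were taken by name, as every gene probe of the array whose gene name is HOXA, HOXB, HOXC or HOXD followed by a number. This gave 39 genes with 48 probes, of 43317 gene names and 58201 gene probes. A single probe stood for 32 of the genes, and 7 genes had more than 1. All 39 names are current RefSeq symbols. The RNA came from HCT116, a colorectal cancer cell line, and A549, a lung cancer cell line. Each line was transfected, with the reagent Dharmafect1, either with the microRNA miR-891b or with NC1, the negative control. Both RNAs in both lines make 4 groups, each with 1 array hybridised from 100 ng of total RNA. The time between transfection and harvest, the dose and the chemical form of either RNA are not given in the sources used here, and all cells had been transfected.

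HOX genes encode transcription factors whose homeodomain binds short, A- and T-rich DNA. Within a cluster they stand in the order in which they are switched on along the axis of the embryo. Genes of low paralog number are used towards the head, those of middle number in the trunk, and those of high number towards the tail, the hindgut and the ends of the limbs. Paralogs of the same number in different clusters descend from 1 ancestral gene. Adult tissues and the lines grown from them keep part of this pattern, held by the Trithorax and Polycomb chromatin complexes. HOX proteins bind DNA together with the cofactors of the PBX, MEIS and PKNOX families.

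The transfected microRNA is shown for its seed, the bases 2 to 8 in capitals, with which a microRNA pairs to its targets (RefSeq, GRCh38.p14, encoded on chromosome X). The reverse complement of this seed, written AAGTTGC in DNA letters, was in none of the 48 HOX probes (0 matches), which says nothing of the rest of those transcripts.
hsa-miR-891b: uGCAACUUaccugagucauuga

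The upstream promoter sequences of 3 HOX genes with a large line difference are shown next, each the 250 bases before the transcription start, in RefSeq's GRCh38.p14. HOXA9 lies at chr7:27165538-27165787 and HOXA11 at chr7:27185233-27185482, both on the minus strand, and HOXD10 at chr2:176116528-176116777 on the plus strand. Capitals mark the letters TTTATG, or their complement on the other strand, which resemble the sites described for HOX proteins of high paralog number.
HOXA9: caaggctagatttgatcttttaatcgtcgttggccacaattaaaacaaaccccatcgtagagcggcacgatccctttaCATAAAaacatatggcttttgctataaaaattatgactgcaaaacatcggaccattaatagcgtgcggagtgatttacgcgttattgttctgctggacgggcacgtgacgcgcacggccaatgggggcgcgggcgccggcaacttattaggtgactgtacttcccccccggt
HOXA11: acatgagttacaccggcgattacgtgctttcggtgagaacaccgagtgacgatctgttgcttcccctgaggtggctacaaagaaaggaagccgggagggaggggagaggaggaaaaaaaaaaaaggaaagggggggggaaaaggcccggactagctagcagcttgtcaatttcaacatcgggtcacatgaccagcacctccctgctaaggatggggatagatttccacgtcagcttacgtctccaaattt
HOXD10: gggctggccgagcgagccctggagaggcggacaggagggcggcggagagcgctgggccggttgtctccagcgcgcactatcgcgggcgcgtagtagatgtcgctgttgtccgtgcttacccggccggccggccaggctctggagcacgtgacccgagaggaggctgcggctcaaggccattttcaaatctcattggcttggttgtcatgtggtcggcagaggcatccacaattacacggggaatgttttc

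The letters occurred 1 time in the HOXA9 window and 0 times in each of the other windows. They were in 3 of the 27 HOX promoter windows found for 20 HOX genes, and in 9.64% of 35116 promoter windows of the same length. A match of letters is a description and not a binding site.

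All values below are log2 signals relative to the 75th percentile of their own array, so 0 is the signal that 75% of the gene probes of that array do not exceed. A gene with more than 1 probe is given by its brightest. A probe counts as measured where the scanner software marked it well above background. Each group is 1 array, so a difference within a line has no replicate error and is called by size alone, at 2-fold or more (1 on the log2 scale). The spread of repeated spots of 1 probe on an array pair had a median SD of 0.061 to 0.071, and covers only the technical error within an array. The 2 arrays of a line lie on 1 slide, so line and slide cannot be told apart, while miR-891b and NC1 are compared within a slide. Between 44.7% and 50.3% of the gene probes of an array were well above background. Some areas of an array were bright where the other arrays were dim. They covered 10.8% of the probes of the HCT116 miR-891b array and from 0.022% to 2.29% of those of the others, and HOX probes inside them are named beside their values.

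The labels were checked on marker genes. Of 7 A549 markers, 5 were at least 2-fold higher in A549 on the NC1 arrays, and the lung marker SFTPB was on no array well above background. The lung marker NAPSA went the other way, with differences of -1.11 on the NC1 arrays and -1.91 on the miR-891b arrays. AKR1B10, an aldo-keto reductase abundant in A549, stood at -2.29 in HCT116 NC1 and 2.18 in HCT116 miR-891b, against 9.88 and 9.69 in A549. Of 7 markers listed for HCT116, CLDN7, CDX2, EPCAM and CLDN3 were higher in HCT116. The intestinal genes LGALS4, VIL1 and CDH17 of that list were well above background only on the A549 arrays. The growth protocol also names fibroblasts. Of 8 fibroblast markers, 2 were well above background on each HCT116 array and 4 on each A549 array. Their medians ran from -5.41 to -3.32, but single markers were brighter. LUM read 1.03 in A549 NC1 and 3.17 in A549 miR-891b, and was not well above background in HCT116. COL1A1 read 1.02 in HCT116 NC1, 0.42 in HCT116 miR-891b, 0.60 in A549 NC1 and 0.01 in A549 miR-891b. The part of these genes in the HOX values was not tested.

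Of the 39 HOX genes, 23 (59.0%) were well above background on all 4 arrays, against 41.7% of all gene names. Another 6 were so on 1 to 3 arrays, and 10 on none. The HOXA and HOXB clusters were the most widely measured, with 8 of 11 and 9 of 10 genes on all 4 arrays. In HOXC 5 of 9 genes and in HOXD 1 of 9 genes were measured on all 4. The number of HOX genes well above background was nearly the same on each array, 26 in HCT116 NC1, 26 in HCT116 miR-891b, 25 in A549 NC1 and 26 in A549 miR-891b.

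Among the genes that were on no array well above background were HOXB1, HOXC5, HOXC10, HOXC11, HOXC12, HOXD4, HOXD11, HOXD12 and HOXD13. HOXB1 patterns the hindbrain, and HOXD11 to HOXD13 the limb. Their signals were between -6.26 and -2.98, in the range of dim probes, and no level or difference is given for them.

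**Figure D1:**
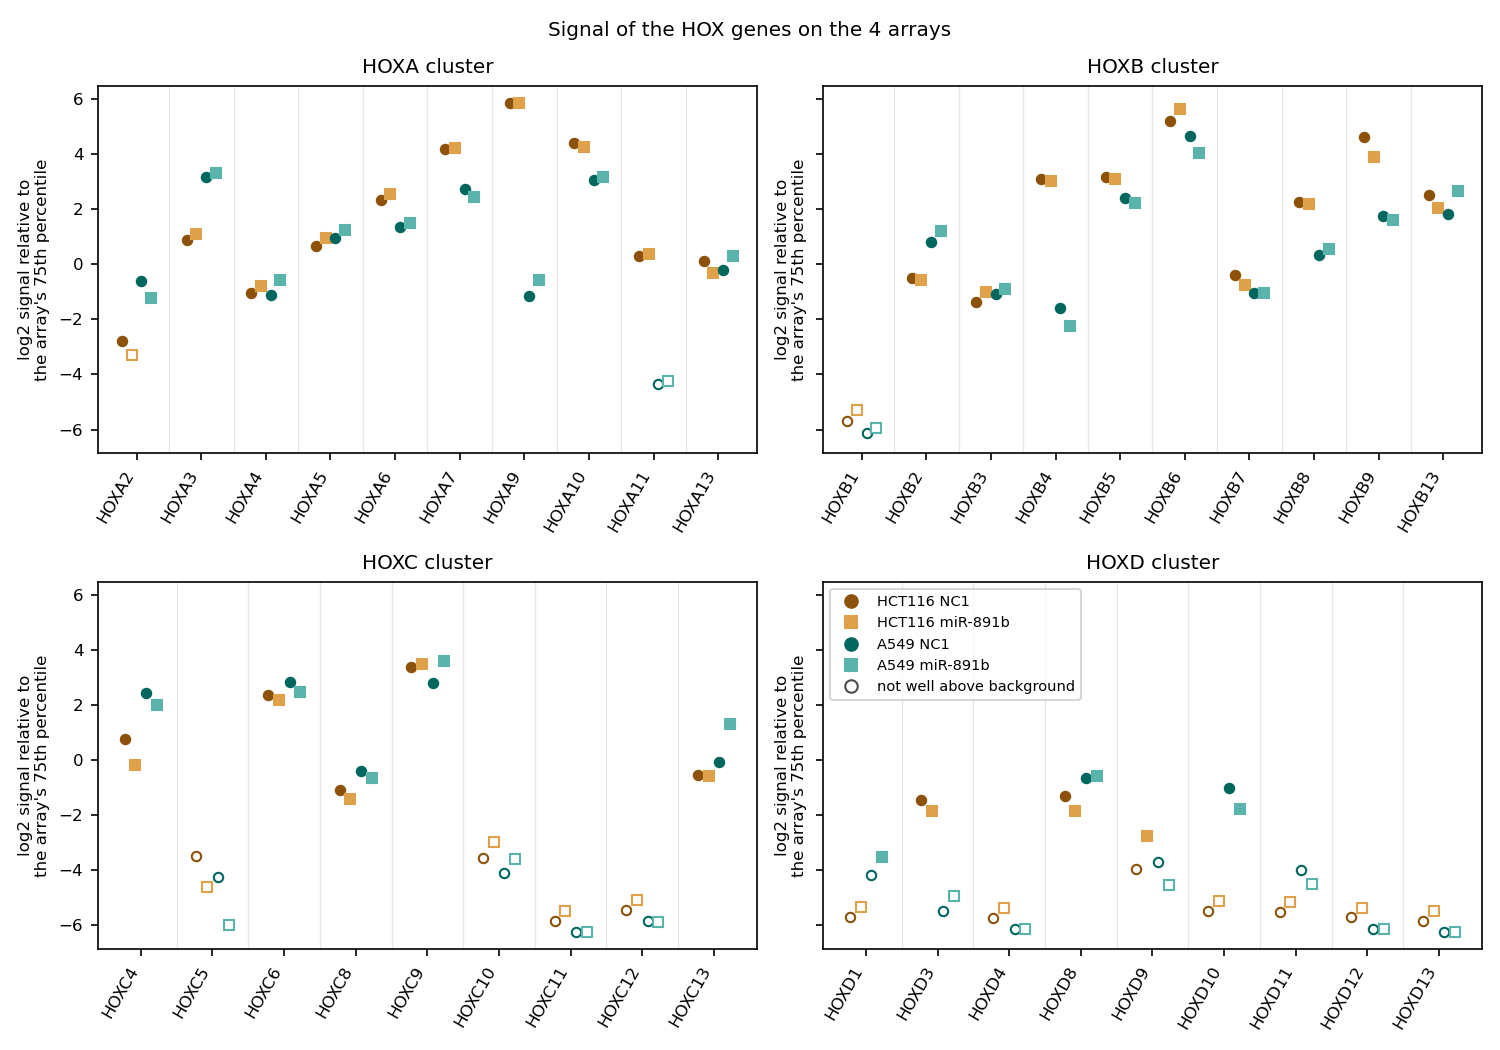
Log2 signal relative to the array's 75th percentile for HOX genes (brightest probe), by cluster and in order of paralog number. Each point is 1 array, and open points were not well above background. HOXA9 and HOXB4 show the widest gaps between the lines among the genes measured on all arrays, HOXA11 and HOXD3 are open in A549, and HOXD10 is open in HCT116.

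The lines differed most in HOXA9, a gene of blood stem cells that is abundant in many acute myeloid leukaemias. Its brightest probe (hg19 chr7:27202588-27202647) read 5.87 in HCT116 NC1, 5.86 in HCT116 miR-891b, -1.15 in A549 NC1 and -0.58 in A549 miR-891b. Both HCT116 arrays were far above both A549 arrays, by 130.2-fold on the NC1 arrays and 87.0-fold on the miR-891b arrays. The line difference is given in 2 ways throughout, over the pair of arrays with the same transfected RNA and as a line term fitted by limma to all genes on the 4 arrays with the transfected RNA as the other term. The line term of HOXA9 was -6.73 ± 0.27 (SE, A549 minus HCT116; limma, adjusted p = 0.00092).

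The 4 probes of HOXA9 gave the same direction and unequal sizes. The probe at hg19 chr7:27202258-27202317 read 4.55 and 4.64 in HCT116 NC1 and miR-891b, and -2.38 and -2.05 in A549. The probe at hg19 chr7:27203345-27203404 read 2.97 and 2.95 in HCT116 (the second in a bright area of that array), and -3.76 (not well above background) and -3.11 in A549. The probe at hg19 chr7:27203145-27203204 read 2.43 and 2.56 in HCT116 and 1.03 and 1.09 in A549, so its gap between the lines was much smaller than that of the other 3.

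HOXB4, which expands blood stem cells when overexpressed, had the next largest gap. It read 3.11 in HCT116 NC1, 3.02 in HCT116 miR-891b, -1.60 in A549 NC1 and -2.24 in A549 miR-891b, 26.2-fold and 38.3-fold lower in A549 on the pairs of arrays. Its line term was -4.99 ± 0.27 (SE; limma, adjusted p = 0.0013). A second HOXB4 probe, at hg19 chr17:46657033-46657092, did not share that gap, with -2.42, -2.16 (in a bright area of that array), -2.69 and -2.64 on the arrays in the same order.

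HOXA11, needed for the forearm and the uterus, was measured in HCT116 only. It read 0.32 in HCT116 NC1 and 0.38 in HCT116 miR-891b, and was not well above background in A549 NC1 (-4.33) or A549 miR-891b (-4.24). Against the dimmest signal that counted as above background, HOXA11 was at least 19.6-fold lower in A549 over the arrays of each line.

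HOXD3, a paralog of HOXA3 and HOXB3, was likewise measured in HCT116 only. It read -1.44 in HCT116 NC1 and -1.85 in HCT116 miR-891b, and -5.48 and -4.92 in A549 NC1 and A549 miR-891b, both not well above background and the second in a bright area of its array. It was at least 4.91-fold lower in A549. HOXA11 and HOXD3 make 2 of 39 HOX genes (5.13%) that were well above background on both HCT116 arrays and neither A549 array, against 1.5% of all gene names.

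HOXD10, a gene of the lumbar spinal cord and hindlimb, had the opposite pattern. It was not well above background in HCT116 NC1 (-5.49, in a bright area of that array) or HCT116 miR-891b (-5.12), and read -0.99 in A549 NC1 and -1.77 in A549 miR-891b. It was at least 3.90-fold higher in A549. HOXD10 was the single HOX gene of 39 (2.56%) well above background on both A549 arrays and neither HCT116 array, against 5.09% of all gene names.

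The other HOX genes lower in A549 were in the middle and upper paralog groups of HOXA and HOXB. HOXB9, expressed in the thoracic trunk, read 4.63 in HCT116 NC1, 3.90 in HCT116 miR-891b, 1.75 in A549 NC1 and 1.61 in A549 miR-891b, with a line term of -2.58 ± 0.27 (SE; limma, adjusted p = 0.0059). HOXB8, which holds myeloid progenitors in division when overexpressed, read 2.25, 2.18, 0.35 and 0.54 in that order, with a line term of -1.77 ± 0.24 (SE; limma, adjusted p = 0.011). For both genes the lower HCT116 array was above the higher A549 array. The share of all genes with such lack of overlap was not counted, so no weight is put on it, here or below.

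HOXA7, a trunk gene often raised together with HOXA9 in leukaemia, read 4.20 in HCT116 NC1, 4.24 in HCT116 miR-891b, 2.75 in A549 NC1 and 2.46 in A549 miR-891b (line term -1.62 ± 0.24 SE; limma, adjusted p = 0.015). HOXA10, needed in the uterus for implantation, read 4.41, 4.26, 3.07 and 3.16 in the same order (line term -1.22 ± 0.24 SE; limma, adjusted p = 0.027). HOXA6 read 2.34, 2.56, 1.37 and 1.52 (line term -1.01 ± 0.23 SE; limma, adjusted p = 0.040, and 0.072 with no filter on dim probes). In all 3 genes the arrays of the lines did not overlap, a pattern not counted over all genes. The second probes of HOXA6 and HOXA10 had the same direction.

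HOXA2, HOXA3 and HOXB2, of low paralog number, were higher in A549. HOXA3, needed for the thymus and the parathyroid glands, read 0.89 in HCT116 NC1, 1.12 in HCT116 miR-891b, 3.18 in A549 NC1 and 3.32 in A549 miR-891b, with a line term of 2.25 ± 0.23 (SE; limma, adjusted p = 0.0056). HOXA2, which patterns the second pharyngeal arch, read -2.77 in HCT116 NC1, -3.31 in HCT116 miR-891b (not well above background), -0.61 in A549 NC1 and -1.22 in A549 miR-891b. HOXA2 was 4.47-fold higher in A549 on the NC1 arrays and at least 3.78-fold on the miR-891b arrays (limma line term, adjusted p = 0.0064, and 0.066 after normexp with quantile normalization).

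HOXB2, a hindbrain gene, read -0.48 in HCT116 NC1, -0.58 in HCT116 miR-891b, 0.82 in A549 NC1 and 1.21 in A549 miR-891b (line term 1.55 ± 0.26 SE; limma, adjusted p = 0.019). Its second probe had the same direction, with -0.42, -0.28, 0.66 and 0.43. HOXC4, which in B cells helps to switch on the antibody-mutating enzyme AID, read 0.78, -0.15, 2.45 and 2.01 (line term 1.91 ± 0.26 SE; limma, adjusted p = 0.011). For HOXB2 and HOXC4, too, every A549 array was above every HCT116 array, again with no share over all genes.

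By size on the NC1 arrays, 24 HOX genes were measured in both lines. Of these, 4 (16.7%) were 2-fold or more higher in A549, HOXA2, HOXA3, HOXB2 and HOXC4, against 11.1% of all genes measured. Another 6 (25.0%) were 2-fold or more lower, HOXA7, HOXA9, HOXA10, HOXB4, HOXB8 and HOXB9, against 16.2% of all genes measured. After normexp with quantile normalization this split was 2 higher and 6 lower. On the miR-891b arrays 23 were measured, and 5 (21.7%) were 2-fold or more higher in A549 against 11.4% of all genes, and 8 (34.8%) lower against 20.7%. HOXC13 and HOXD8 were past 2-fold higher, and HOXA6 and HOXB6 past 2-fold lower, on the miR-891b arrays and not on the NC1 arrays. On both pairs of arrays 3 genes were past 2-fold higher and 6 past 2-fold lower. The share of all genes past 2-fold on both pairs was not counted, so these 2 counts have no background beside them.

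In the limma fit, 27 HOX genes were well above background on at least 2 arrays and so were tested, with p-values adjusted over all 22714 genes. The line term passed an adjusted p of 0.05 for 14 of them. It was higher in A549 for 5 (18.5%), HOXA2, HOXA3, HOXB2, HOXC4 and HOXD10, against 15.5% of all genes. It was lower in A549 for 9 (33.3%), HOXA6, HOXA7, HOXA9, HOXA10, HOXA11, HOXB4, HOXB8, HOXB9 and HOXD3, against 16.4% of all genes. HOXA11, HOXD3 and HOXD10 entered the fit only through the line where they are high, so their line terms are given no weight. Counts of other lists in the fit also include genes measured in 1 line only. Among the 24 HOX genes well above background on an array of each line, 4 were higher (16.7%, against 9.9% of all such genes) and 7 lower (29.2%, against 15.5%). The repeats behind this term are the NC1 and miR-891b arrays of each line, which leave 1 residual degree of freedom per gene.

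**Figure D2:**
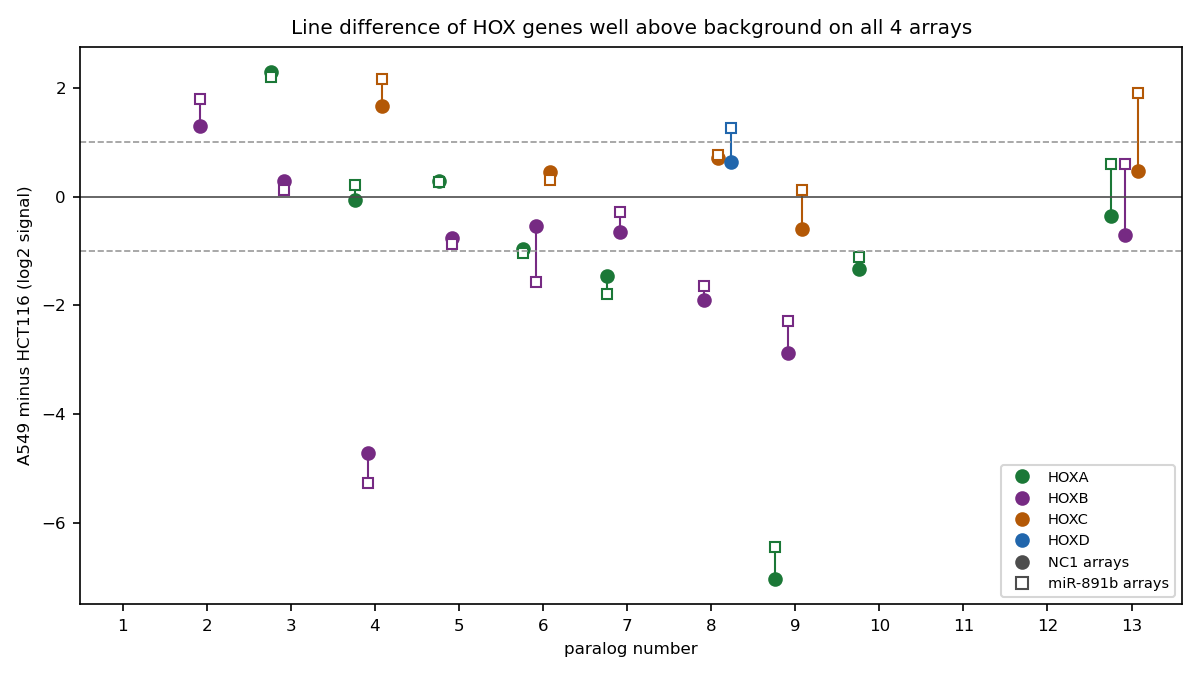
A549 minus HCT116 log2 signal against paralog number for the 23 HOX genes well above background on all 4 arrays, coloured by cluster. Filled circles are the NC1 arrays, open squares the miR-891b arrays, a line joins the values of a gene, and dashed lines mark 2-fold. The HOXA and HOXB genes of paralog groups 6 to 10 lie below 0, HOXA9 and HOXB4 lowest, while HOXB2 and HOXA3 lie above.

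Read along the clusters, the measured genes of paralog groups 1 to 3 were higher in A549 on the NC1 arrays in 4 of 4 cases, with a median of 1.73, and 3 were past 2-fold. HOXD3, of the same group, was measured in HCT116 only. Over all genes measured in both lines on the NC1 arrays, 8640 of 19218 were higher in A549. Paralog groups 4 to 8 had a median of -0.54 over 13 genes, with 1 past 2-fold higher and 3 lower. Paralog groups 9 to 13 had a median of -0.71 over 7 genes, with 0 higher and 3 lower. HOXD10 and HOXA11, of these groups, were each measured in 1 line only on the NC1 arrays and are not among the 7. HOXD10 was at least 5.89-fold higher in A549 there, and HOXA11 at least 19.4-fold lower. The shares past 2-fold over all genes were 11.1% higher and 16.2% lower. On the miR-891b arrays the medians were 1.80 over 3 genes, -0.28 over 13 and 0.13 over 7. The sign thus turned for groups 9 to 13, with 1 past 2-fold higher and 3 lower, against 11.4% and 20.7% of all genes. Over all HOX genes measured the median was -0.45 on the NC1 arrays, beside -0.10 over all genes, and 0.13 on the miR-891b arrays, beside -0.19. The trend along the cluster was loose. Over the 22 genes of HOXA, HOXB and HOXC on all 4 arrays, paralog number and the line difference had a Pearson r of -0.25 and a Spearman rho of -0.39 on the NC1 arrays. On the miR-891b arrays they were -0.06 and -0.16. Within HOXA, HOXB and HOXC, Pearson r was -0.44, -0.22 and -0.54 on the NC1 arrays. On the miR-891b arrays it was -0.34, 0.01 and 0.03, while Spearman rho was negative in each cluster. These points share 4 arrays, and neighbours share a cluster.

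The counts by cluster were small, and no difference between clusters was tested. In HOXA 2 genes were past 2-fold higher and 3 lower on the NC1 arrays, and in HOXB 1 higher and 3 lower. The 5 measured HOXC genes had 1 higher and 0 lower, and the shares over all genes were 11.1% and 16.2%. HOXD8, the single HOXD gene on all 4 arrays, read -1.30 in HCT116 NC1, -1.83 in HCT116 miR-891b, -0.66 in A549 NC1 and -0.56 in A549 miR-891b. Its A549 arrays were above its HCT116 arrays, with a line term of 0.96 ± 0.28 (SE; limma, adjusted p = 0.067).

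HOXA4, HOXA5, HOXB3, HOXB5, HOXB7, HOXC6 and HOXC8 had line terms that missed the threshold and differed by less than 2-fold between the lines on both pairs of arrays. HOXA4 read -1.06 in HCT116 NC1, -0.79 in HCT116 miR-891b, -1.12 in A549 NC1 and -0.57 in A549 miR-891b, and its lines overlapped. HOXA5, which the embryonic lung and airway need, read 0.67, 0.97, 0.95 and 1.24 in that order. HOXB3, a hindbrain gene like HOXB2, read -1.37, -1.0, -1.08 and -0.88. The lines overlapped in HOXA5 and HOXB3 too.

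HOXB5, a gene of the embryonic lung and the gut's nervous system, read 3.18, 3.09, 2.42 and 2.22 in the same order. Its line term was -0.81 ± 0.23 (SE; limma, adjusted p = 0.064, and 0.037 after normexp with quantile normalization). HOXB7, studied for its high levels in several carcinomas, read -0.39, -0.75, -1.05 and -1.03. HOXC6 read 2.37, 2.18, 2.83 and 2.48, and HOXC8, a gene of the brachial spinal cord, -1.08, -1.40, -0.37 and -0.63. In HOXB5, HOXB7, HOXC6 and HOXC8 the arrays of the lines did not overlap. The share of all genes whose lines do not overlap was not counted. No weight is therefore put on lack of overlap, here or for the HOX genes above.

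Few HOX genes differed by 2-fold or more between the miR-891b and NC1 arrays of a line. In HCT116, 25 HOX genes were measured on both arrays and 0 were 2-fold or more higher or lower, against 1.16% and 0.843% of all genes. Their differences ran from -0.94 to 0.43, with a median of -0.09 beside -0.04 over all genes. The lowest were HOXC4, at 0.78 with NC1 and -0.15 with miR-891b, and HOXB9, at 4.63 and 3.90.

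In A549, 25 HOX genes were measured on both arrays. Of these, 1 was 2-fold or more higher, against 4.01% of all genes, and 0 were 2-fold or more lower, against 5.57%. The differences ran from -0.78 to 1.40, with a median of 0.10 beside -0.06 over all genes. The share of HOX genes past 2-fold was thus near or below the background in both lines.

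The gene past 2-fold was HOXC13, which controls keratins of hair and nail. It read -0.54 in HCT116 NC1, -0.58 in HCT116 miR-891b, -0.08 in A549 NC1 and 1.33 in A549 miR-891b. The A549 miR-891b array was thus above the other 3, by 2.65-fold over A549 NC1. With normexp and quantile normalization the A549 difference was 0.96, under 2-fold. HOXC13-AS, the antisense RNA beside it, had its highest value on the same array, with -2.64, -2.50, -0.14 and 1.09 in the same order, a difference of 1.23 in A549 and 0.14 in HCT116.

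HOXC9, HOXB13 and HOXA13, of high paralog number, were also higher with miR-891b in A549, each by less than 2-fold. HOXC9, a gene of the thoracic spinal cord, read 3.39 in HCT116 NC1, 3.49 in HCT116 miR-891b, 2.81 in A549 NC1 and 3.62 in A549 miR-891b. HOXB13, a hindgut and prostate gene whose protein partners the androgen receptor, read 2.53, 2.06, 1.82 and 2.65. HOXA13, needed for the digits and the hindgut, read 0.13 (in a bright area of that array), -0.30, -0.22 and 0.31.

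HOXC9, HOXB13, HOXA13 and HOXA4 are the 4 genes whose line difference had opposite signs on the NC1 and miR-891b arrays. HOXC9 was 0.59 lower in A549 on the log2 scale with NC1 (a difference of -0.59) and 0.13 higher with miR-891b. The differences of HOXB13 were -0.71 and 0.60, those of HOXA13 -0.35 and 0.61, and those of HOXA4 -0.07 and 0.22. Of the 8 genes of paralog groups 9 to 13 measured on both A549 arrays, 6 were above 0 and 2 below, with a median of 0.55 and HOXC13 alone past 2-fold. In HCT116 the 8 measured genes of these groups had a median of -0.09, with 2 above 0 and 6 below. Over all genes measured, 9481 of 21337 were above 0 in A549 and 8510 of 19104 in HCT116. With 1 pair of arrays behind each value, no test compares the lines here.

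**Figure D3:**
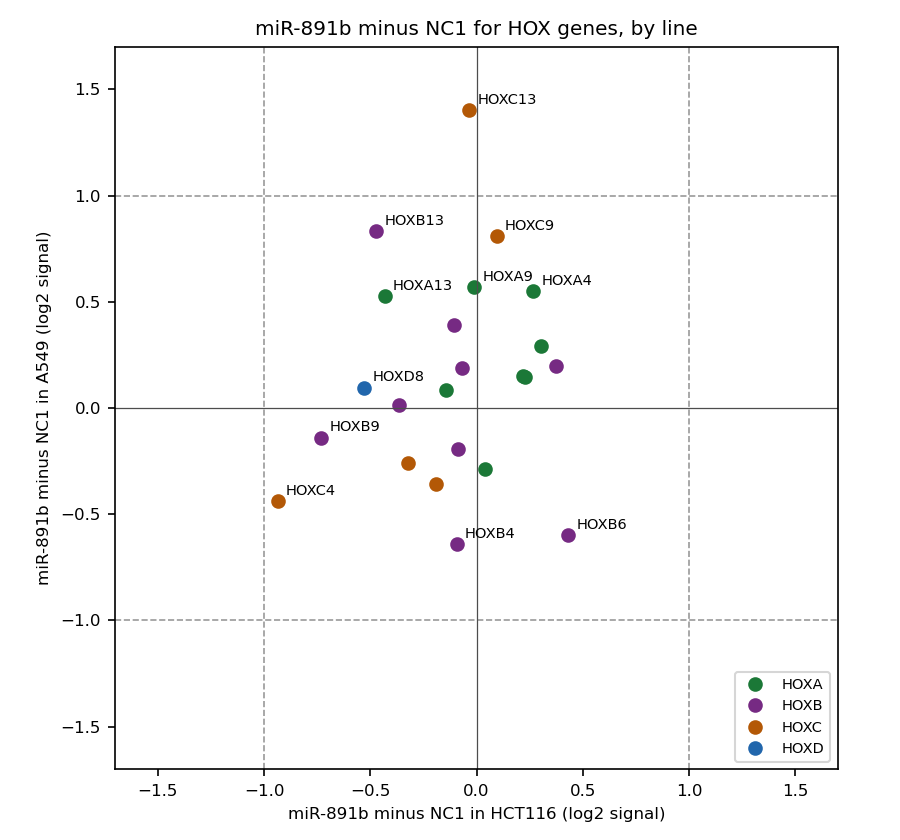
miR-891b minus NC1 log2 signal in HCT116 (horizontal) and A549 (vertical) for the 23 HOX genes well above background on all 4 arrays, coloured by cluster. Dashed lines mark 2-fold. HOXC13 alone lies past a dashed line, and HOXB13 and HOXA13 lie at upper left and HOXB6 at lower right.

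The lowest A549 difference among genes on all 4 arrays was that of HOXB4, at -0.64, followed by HOXB6 at -0.60. HOXB6 read 5.20 in HCT116 NC1, 5.63 in HCT116 miR-891b (in a bright area of that array), 4.66 in A549 NC1 and 4.06 in A549 miR-891b. HOXD10, measured in A549 only, differed by -0.78 there, and HOXA2 by -0.61.

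HOXD1 and HOXD9 were each measured on 1 array. HOXD1 was well above background in A549 miR-891b only (-3.52), at least 1.35-fold above the floor of A549 NC1. HOXD9 was well above background in HCT116 miR-891b only (-2.75), at least 1.74-fold above the floor of HCT116 NC1. The second HOXD3 probe was also well above background on that array only, at -2.02. The dimmest signals well above background were -3.93 on the A549 miR-891b array and -3.14 on the HCT116 miR-891b array. The HOXD1 and HOXD9 signals lie near these limits, and the HOXD3 signal lies further above.

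Across the 23 genes on all 4 arrays, the miR-891b difference was above 0 in both lines for 6, below 0 in both for 6 and of opposite sign for 11. The same shares over all genes were not counted, so no weight is put on these counts. In the limma fit of all 4 arrays, with the line as the other term, the miR-891b term passed for 0 of the 27 HOX genes and for 0 of 22714 genes (0%). At an unadjusted p under 0.05 there were 0 HOX genes and 1211 genes in all. The smallest adjusted p of a HOX gene was 0.793.

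The noncoding RNAs transcribed within the HOX clusters were 16 by name on this array. On the NC1 arrays 11 were measured in both lines, with 5 past 2-fold higher in A549 and 3 lower, against 11.1% and 16.2% of all genes. On the miR-891b arrays 9 were measured, with 2 past 2-fold higher and 2 lower, against 11.4% and 20.7%. In the limma fit 12 were tested, and the line term passed for 6 higher and 3 lower in A549, against 15.5% and 16.4% of all genes. HOXA10-AS, beside HOXA10, read 4.05 in HCT116 NC1, 3.98 in HCT116 miR-891b, -0.16 in A549 NC1 and -0.37 in A549 miR-891b (line term -4.28 ± 0.23 SE; limma, adjusted p = 0.0014). HOXA11-AS, antisense to HOXA11, read 1.16, 1.08, -0.98 and -0.18 (limma, adjusted p = 0.024). Both were lower in A549, as were HOXA9, HOXA10 and HOXA11.

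HOXA-AS2, beside HOXA3, was not well above background in HCT116 NC1 (-4.68) or miR-891b (-4.06), and read 1.33 in A549 NC1 and 0.18 in A549 miR-891b. It was at least 17.1-fold higher in A549, and within A549 it was lower with miR-891b by more than 2-fold, a difference of -1.15. HOXB-AS1, beside HOXB2 and HOXB3, read -0.75, -0.65, 2.45 and 2.35 (limma, adjusted p = 0.0027). HOXD-AS2, in the HOXD cluster, read 1.34 and 1.28 in HCT116 and -2.42 and -4.05 in A549, the last not well above background. HOXD-AS2 was at least 2.85-fold lower with miR-891b in A549.

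**Figure D4:**
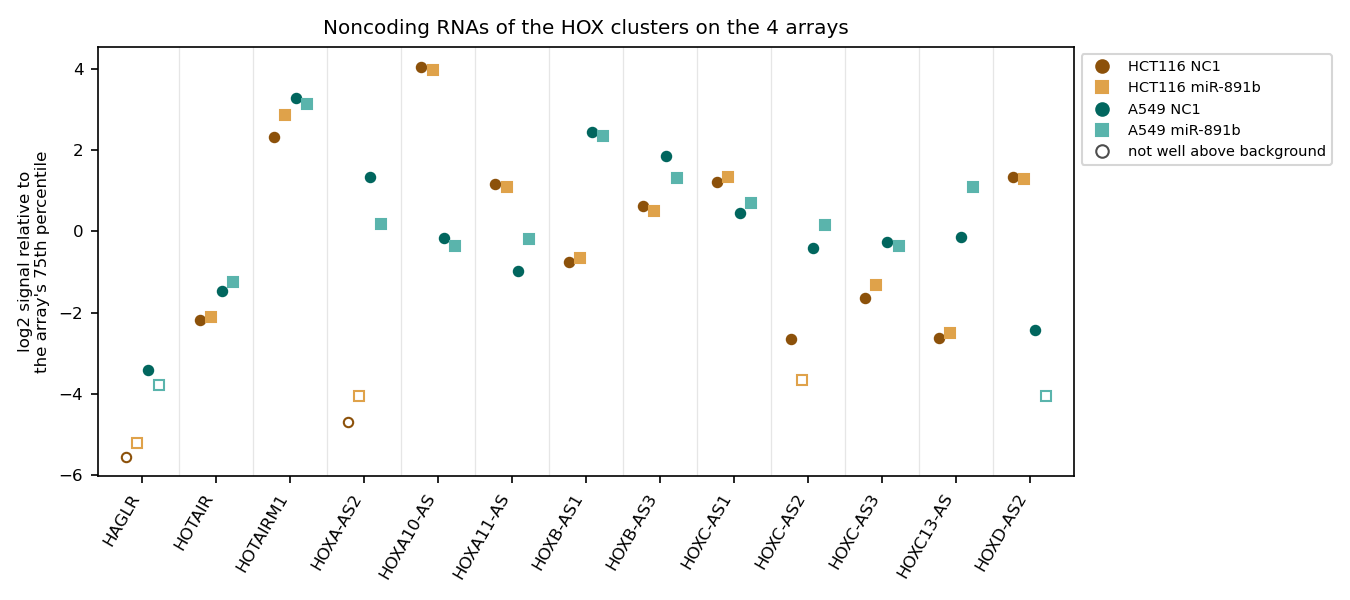
Log2 signal relative to the array's 75th percentile for the 13 noncoding RNAs of the HOX clusters that were well above background on at least 1 array. Each point is 1 array, and open points were not well above background. HOXA10-AS and HOXD-AS2 are higher in HCT116, and HOXA-AS2, HOXB-AS1 and HOXC13-AS are higher in A549.

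HOTAIRM1, an RNA of the HOXA cluster, read 2.32, 2.86, 3.29 and 3.12 in that order, and HOTAIR, an RNA of the HOXC cluster known for binding Polycomb proteins, -2.17, -2.11, -1.47 and -1.26. Neither line term passed (limma, adjusted p = 0.176 and 0.072). HOTTIP, beside HOXA13, was on no array well above background. By miR-891b, HOXC13-AS was past 2-fold higher and HOXA-AS2 past 2-fold lower in A549 among 11 measured. In HCT116 0 of 10 were past 2-fold. The shares over all genes were 4.01% higher and 5.57% lower in A549, and 1.16% and 0.843% in HCT116.

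Among 9 cofactors of the PBX, MEIS and PKNOX families, 7 were measured in both lines on the NC1 arrays. Of these, 1 was past 2-fold higher in A549 and 2 lower, against 11.1% and 16.2% of all genes. With miR-891b the counts were 3 higher and 1 lower of 7, against 11.4% and 20.7%. The line term passed for 2 higher and 1 lower of the 8 tested, against 15.5% and 16.4%. PBX4, of the family that partners HOX proteins on DNA, read 2.19 in HCT116 NC1, 2.72 in HCT116 miR-891b, -1.26 in A549 NC1 and -0.97 in A549 miR-891b (line term -3.57 ± 0.24 SE; limma, adjusted p = 0.0020). MEIS1, which acts with HOXA9 in leukaemia, read -1.33 and -1.59 in A549 and was not well above background on either HCT116 array, so that it was at least 3.69-fold higher in A549. By miR-891b, 0 of 7 cofactors in HCT116 and 0 of 8 in A549 were past 2-fold. The shares over all genes were 1.16% higher and 0.843% lower in HCT116, and 4.01% and 5.57% in A549.

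Of 25 Trithorax and Polycomb regulators, which keep HOX genes on and off, all were measured on the 4 arrays. On the NC1 arrays 6 were past 2-fold lower in A549 and 0 higher, against 16.2% and 11.1% of all genes. The line term passed for 5, all lower, against 16.4% of all genes. CBX7, a Polycomb protein that reads a repressive histone mark, read 2.79 in HCT116 NC1, 2.33 in HCT116 miR-891b, 0.30 in A549 NC1 and 1.02 in A549 miR-891b (limma, adjusted p = 0.027). WDR5, a subunit of the Trithorax complexes, read 4.92, 4.63, 3.70 and 2.74 (limma, adjusted p = 0.023). By miR-891b, 0 of 25 were past 2-fold in either line. Over all genes 1.16% were higher and 0.843% lower in HCT116, and 4.01% and 5.57% in A549, so few calls would be looked for among 25. The largest difference was that of EZH2, the Polycomb methyltransferase, at -0.99 in A549.

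Genes that flank or control the clusters were also read. SKAP1, the neighbour of HOXB1, read 3.07, 3.13, -2.86 and -2.56 in that order (line term -5.81 ± 0.24 SE; limma, adjusted p = 0.00092). Of 10 flanking genes measured in both lines on the NC1 arrays, SKAP1 was past 2-fold lower in A549 and CBX5 higher, against 16.2% and 11.1% of all genes. In the fit of 11 flanking genes the line term passed for 2 higher and 1 lower, against 15.5% and 16.4% of all genes. CDX2, an intestinal activator of HOX genes and 1 of 6 ParaHox genes, read 2.50, 2.57, -2.72 and -3.08 (line term -5.44 ± 0.25 SE; limma, adjusted p = 0.0011). Retinoic acid is a vitamin A derivative that switches on HOX genes of low number. Of 18 of its receptors and enzymes, 12 were measured in both lines on the NC1 arrays. Past 2-fold, 4 were higher in A549 and 6 lower, against 11.1% and 16.2% of all genes. With miR-891b the counts were 2 higher and 4 lower of 11, against 11.4% and 20.7%. In the fit of 14 the line term passed for 6 higher and 6 lower, against 15.5% and 16.4%. This fit also took genes measured in A549 only on the NC1 arrays, so its counts are given no weight. RARB, a retinoic acid receptor, was at least 4.04-fold higher in A549 and not well above background in HCT116. By miR-891b, 0 of 11 of these receptors and enzymes were past 2-fold in HCT116. In A549 0 were higher and 1 lower of 14. Over all genes 1.16% were higher and 0.843% lower in HCT116, and 4.01% and 5.57% in A549.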

How the data were processed

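Agilent Feature Extraction 11.5.1.1 read the scans and removed background and spatial trends from each array, per the file headers. The deposited scanner files hold these intensity values with no scaling between arrays, and probe coordinates are hg19. A further deposited table gives the authors' own log2 values, with column medians of -3.80 to -3.60. Their making is not stated, but they equalled the scale used here to within a median of 0.0076 or less (largest difference 0.11).

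Samples were grouped by their titles. Spots marked as outliers were left out, the log2 processed signals of a probe's spots were averaged, and the array's 75th percentile over gene probes was subtracted. Where 1 group was not well above background, the fold is a bound ("at least") against the higher of the lowest signal well above background on that array and the probe's own signal, averaged over arrays where a line has 2. Genes well above background on at least 2 of 4 arrays were fitted with limma 3.58.1 in R 4.3.3 (line and transfected RNA, Benjamini-Hochberg over all genes), tested on simulated data first. Other values came from Python 3.11.15, numpy 2.4.6 and pandas 2.3.3. A bright area of an array is one where, within 10 rows and 10 columns of a spot, at least 10% of the spots that the other arrays read as dim were above background.

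HOX genes are named by rule, and list genes mainly where past 2-fold. A few members and list genes are not reported here. The members, the lists, the paralog groups, the promoters and the motif were chosen with earlier results of these data known. The labels do not say whether arrays came from separate cultures. Alternatives were quantile normalization, normexp (offset 50) with quantile normalization, median scaling, the authors' values, no filter on dim probes, the mean over probes, leaving out bright areas, and folds of 1.5 and 3.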

Additional observations from a re-analysis of the deposited data

Results flagged for a closer look

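HOXB13, HOXA13 and HOXB6 were above NC1 in one line and below it in the other, each by more than 3 times the spread of repeated spots (0.21 on the log2 scale). This contrast was not tested, with 1 pair of arrays behind each value. For HOXB13 the miR-891b minus NC1 difference was -0.47 in HCT116 and 0.83 in A549, which are 1.30 apart. For HOXA13 it was -0.43 and 0.53, which are 0.96 apart, and its probe lies in a bright area of the HCT116 NC1 array. For HOXB6 it was 0.43 and -0.60, an A549 minus HCT116 value of -1.03, and its probe lies in a bright area of the HCT116 miR-891b array, where 20.0% of the nearby dim spots were bright.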

How the results depend on the processing

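Replicates could not be paired by number, since each group has 1 array. The limma fit, with the line as a term, gives 1 miR-891b difference averaged over the lines and none for each line. Differences of opposite sign in the lines partly cancel in it. Of 23 HOX genes 11 had such differences, and the share over all genes was not counted. No HOX value past 2-fold and no line term past the limma threshold changed sign under the alternatives run. HOXD3 in HCT116, at -0.41 and not past 2-fold, turned to 1.41 with the mean over probes and to 3.24 outside bright areas, where its second probe, not well above background with NC1, stands for it. The counts past 2-fold moved as follows, with some smaller moves left out. With no filter on dim probes, the line counts on the NC1 arrays became 7 higher and 8 lower. Those on the miR-891b arrays became 8 higher and 12 lower. The miR-891b minus NC1 counts became 1 higher and 1 lower in HCT116 and 2 higher and 1 lower in A549. With quantile normalization, normexp with quantile normalization and median scaling, 6 genes were lower in A549 on the miR-891b arrays. With normexp and quantile normalization, 2 were higher in A549 on the NC1 arrays, 0 were higher by miR-891b in A549, and the line term passed for 3 higher. With the mean over probes, 1 was higher in HCT116, HOXD3. At 1.5-fold, 11 were lower in A549 on the NC1 arrays and 8 higher on the miR-891b arrays, 2 were lower by miR-891b in HCT116, and 3 higher and 4 lower in A549. At 3-fold, 5 were lower in A549 on the miR-891b arrays and 0 were higher by miR-891b in A549. Median scaling moved the median of all genes on the miR-891b arrays between the lines from -0.19 to -0.08. The median HOX difference in HCT116 was -0.09, and 0.04 with the mean over probes. Between the lines on the miR-891b arrays it was 0.13, and -0.60 with no filter on dim probes. Without that filter the median of all genes there was -0.60 too. With 1 array per group, the number of arrays limits the precision.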
